A study of Mus musculus with 6 samples.

Results

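The strongest H3K9me3 regions of this series were 2086 autosomal regions, 3.65% of the 57159 autosomal regions in the table of M-EPC and OVX-EPC, where at least 2 of the 4 libraries held 30 or more reads. The other 55073 autosomal regions are called weaker regions here, and the 3 tables of the series held 58511 regions in all. The regions were selected on reads, recovered from the authors' normalized values because each column held whole multiples of its smallest nonzero value. All but 10 strong regions were 400 bp long, and 41 had no gene name in the table. The libraries were made by CUT&Tag, in which an antibody against trimethylated lysine 9 of histone H3 (H3K9me3) tethers the Tn5 transposase so that DNA beside the mark is cut and tagged. The cells were endothelial progenitor cells (EPCs) from C57BL/6J mouse bone marrow, magnetically sorted for Sca-1 and CD31 and grown in EGM-2 endothelial medium. M-EPC came from male mice, F-EPC from female mice and OVX-EPC from female mice whose ovaries had been removed, and the sources used here name no transgene, deletion or drug. Each group had 2 libraries of cells frozen in duplicate, and nothing in the labels says that they came from separate mice, so the p-values measure the spread between these samples, which may be technical.

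H3K9me3 is a mark of silenced chromatin. It is laid down at pericentromeric satellites by the Suv39h enzymes, and at many retroelements and zinc finger gene clusters by Setdb1, which Trim28 brings to sites bound by KRAB zinc finger proteins. It also marks the silent allele of several imprinted genes. The genes used to sort the cells gave no check of cell identity in these data, since Ly6a (Sca-1) and Pecam1 (CD31) had 0 promoter regions. Promoters of endothelial genes held 1 region and those of other marrow and blood cell genes held 3, of which 0 were among the strongest.

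Depth over all regions was 288353 to 573821 reads per library. With chromosome names sorted as text, the reads of F-EPC replicate 1 stopped within chromosome 16 and those of replicate 2 within chromosome 3. F-EPC was therefore compared only in the 26999 regions before the earlier stop, which held 718 (34.4%) of the strongest regions, and no F-EPC value is given elsewhere. Autosomal regions among these held 288322 and 252318 reads for F-EPC, more than the 200296 to 235301 of the other libraries, so raw F-EPC reads there stand against a greater depth.

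Sequences of 4 strong regions, read from the plus strand of RefSeq GRCm38 (mm10), show the kinds of DNA that the rule collected. In the first and the last the capitals mark CpG dinucleotides. In the second they mark a 26-base stretch that recurs 234 bases further on, and in the third the 14-base motif GGNTTNTCNCCNGT, the reverse complement of ACNGGNGANAANCC, which encodes the linker between successive C2H2 zinc fingers.
Gm26917, chr17:39844938-39845237: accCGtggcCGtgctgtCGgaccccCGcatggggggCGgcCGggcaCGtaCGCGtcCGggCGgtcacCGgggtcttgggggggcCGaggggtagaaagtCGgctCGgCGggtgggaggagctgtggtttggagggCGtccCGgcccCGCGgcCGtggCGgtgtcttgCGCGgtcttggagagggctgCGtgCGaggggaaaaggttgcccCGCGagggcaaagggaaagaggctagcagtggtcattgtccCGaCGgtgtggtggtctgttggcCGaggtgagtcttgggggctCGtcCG
Gm10717, chr9:3031994-3032293: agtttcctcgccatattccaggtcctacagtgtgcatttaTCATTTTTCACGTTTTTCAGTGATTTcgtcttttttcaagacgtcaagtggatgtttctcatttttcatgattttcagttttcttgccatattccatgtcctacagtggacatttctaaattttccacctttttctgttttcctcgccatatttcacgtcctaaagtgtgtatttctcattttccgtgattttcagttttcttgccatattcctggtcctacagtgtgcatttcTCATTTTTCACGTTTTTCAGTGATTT
Zfp599, chr9:22278615-22278914: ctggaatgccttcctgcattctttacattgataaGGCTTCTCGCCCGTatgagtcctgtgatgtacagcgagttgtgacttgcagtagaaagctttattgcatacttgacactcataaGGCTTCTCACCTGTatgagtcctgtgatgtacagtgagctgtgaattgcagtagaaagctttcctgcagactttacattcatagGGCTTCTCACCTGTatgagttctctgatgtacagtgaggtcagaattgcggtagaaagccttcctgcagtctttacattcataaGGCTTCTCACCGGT
Inpp5f, chr7:128611039-128611338: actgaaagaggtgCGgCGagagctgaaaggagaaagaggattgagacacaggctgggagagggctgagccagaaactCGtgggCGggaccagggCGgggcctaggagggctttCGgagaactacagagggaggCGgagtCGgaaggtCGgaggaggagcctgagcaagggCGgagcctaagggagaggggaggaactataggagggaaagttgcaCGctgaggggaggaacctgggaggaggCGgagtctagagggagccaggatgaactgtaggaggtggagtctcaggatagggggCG

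The Gm26917 window lies in the strongest region of all and held 33 CpG dinucleotides. The region of the Gm10717 window, near the start of chromosome 9, matched itself at 90.4% of positions when shifted by 234 bases, the length of the unit of mouse major satellite. The Zfp599 window held 4 copies of the linker motif spaced 84 bases apart, which is 28 codons and the usual length of 1 finger with its linker. The Inpp5f window held 13 CpG dinucleotides and lies almost wholly before the 5' end of the gene. Inpp5f has an imprinted isoform, but whether this region bears on that isoform was not tested.

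The rule used reads, so the levels are given as a description with no test. The mean of the authors' normalized values over the 4 libraries had a median of 36.7 in the strongest regions (20.4 to 1768) and of 6.11 in the weaker ones (up to 31.9). Most strong regions sat close to the threshold, and the tail was short: 93 had a mean value of at least 100, 31 of at least 200 and 6 of at least 500. In 1698 regions (81.4%) at least 1 library of each group reached 30 reads, in 355 (17.0%) both M-EPC libraries did and no OVX-EPC library, and in 33 (1.58%) the reverse held.

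At the threshold the choice was narrow. An Ifi213 promoter region just inside it held 30 and 51 M-EPC reads and 25 and 30 OVX-EPC reads. A Vdac2 promoter region just outside it held 44 and 29 M-EPC reads and 26 and 28 OVX-EPC reads. Likewise a Klk1b21 region inside held 29, 46, 26 and 30 reads in the same order of libraries, and a D130040H23Rik region outside held 29, 43, 26 and 28.

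The highest levels lay side by side on chromosome 17, beside and over a gene that GENCODE M21 types as rRNA. The Gm26917 region at chr17:39844877-39845276, in a long noncoding RNA gene, held 1707 and 1724 M-EPC reads and 1789 and 1977 OVX-EPC reads. A neighbour at chr17:39847818-39848217 with no gene symbol in the table, which overlaps the rRNA-type gene, held 1311 and 1252 M-EPC reads and 1365 and 1431 OVX-EPC reads. Both chromosome 17 regions were several times above the third, Gm10801 on chromosome 2, with 522 and 627 M-EPC reads and 693 and 629 OVX-EPC reads. In the Gm10801 region 34.3% of 25-base stretches were unique in the genome, and in the Gm26917 region 99.7%. The samples include no control library, so how far the highest levels reflect the mark was not tested.

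Next came Gm5614 on chromosome 9, with 477 and 568 M-EPC reads and 632 and 577 OVX-EPC reads. The Gm21738 promoter region on chromosome 14 held 489 and 540 M-EPC reads, 659 and 572 F-EPC reads and 590 and 597 OVX-EPC reads. Gm11668 on chromosome 11 held 454 and 493 M-EPC reads, 643 and 624 F-EPC reads and 548 and 561 OVX-EPC reads. Most of these names belong to predicted genes, and the remaining ones of the first 12 were Gm10800, a second Gm21738 region, Gm25352 and 3 regions of Sfi1, the gene of a spindle assembly protein. Differences between groups were tested with limma over all 16931 regions of the table with a value of at least 10 in at least 2 libraries, on the log2 scale of the value plus 1, which understates change at low values. Of all these regions 0.449% passed between OVX-EPC and M-EPC at an adjusted p under 0.05. In 11 of the 12 strongest regions the OVX-EPC mean was above the M-EPC mean, with log2 fold changes of -0.07 to 0.36 that did not pass the test (limma, adjusted p of 0.334 to 0.891). In the 6 that F-EPC covers, the log2 fold change from M-EPC to F-EPC was -0.26 to 0.03.

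**Figure D1:**
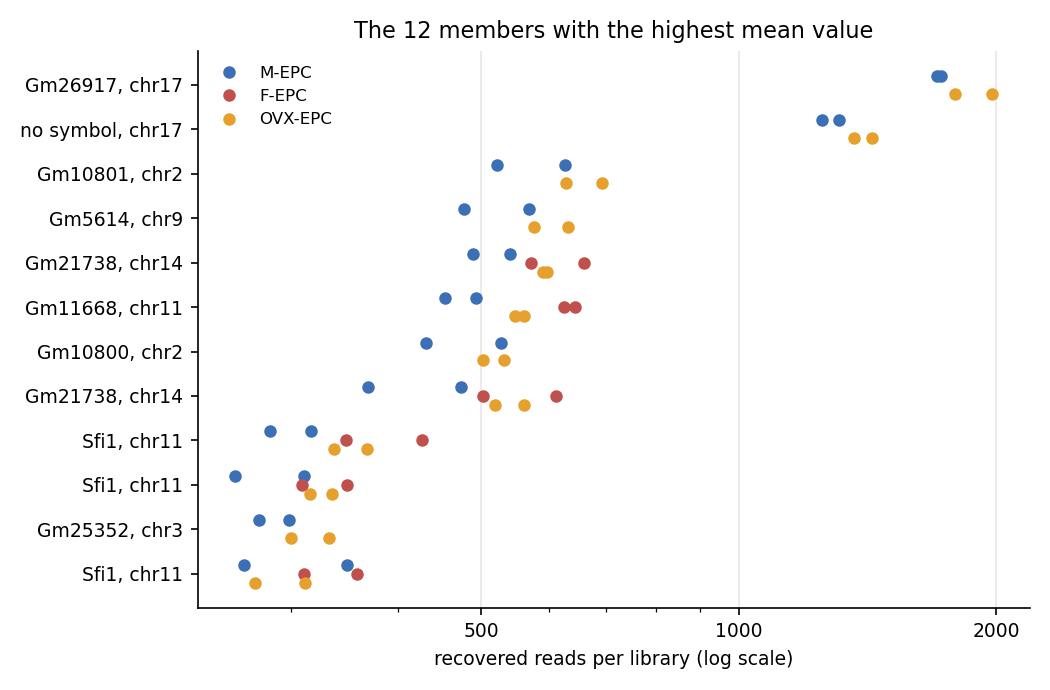
Recovered reads per library (log scale) in the 12 strongest regions by mean value, 1 point per library and 1 colour per group, with F-EPC drawn only where both of its libraries cover the region. The chromosome 17 regions sit far to the right of the other 10, and the groups lie close together in each row.

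Annotation was not part of the rule. The authors' annotation placed 821 (39.4%) of the strongest regions in promoters, a class that reaches 3 kb from a transcription start site, with a 95% Wilson interval of 37.3% to 41.5% that covers counting error only. In weaker regions promoters made up 19.9%. Within 1 kb of a start site the shares were 30.5% and 14.6%. Distal intergenic regions were fewer among the strongest (36.4%) than among the weaker regions (54.9%), and so were introns (15.1% and 21.6%). Exons (5.66% and 2.17%), stretches downstream of genes (2.40% and 0.939%), 3' UTRs (0.671% and 0.345%) and 5' UTRs (0.384% and 0.122%) were more frequent. Promoters made up 38.3% of the regions that both groups took past 30 reads and 44.2% of those that M-EPC alone took past it. Regions are not independent replicates, and no test was made across them.

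The promoter share climbed with the level until about the threshold and changed little beyond it. It was 11.0% below a mean value of 5, 19.4% from 5 to 10, 34.5% from 10 to 20 and 41.1% from 20 to 40. From 40 to 80 it was 39.0% and above 80 it was 45.1%. Exons followed another course, from 2.27% in the lowest tier and 2.22% at 10 to 20 up to 3.47% at 20 to 40, 7.89% at 40 to 80 and 8.45% above 80.

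**Figure D2:**
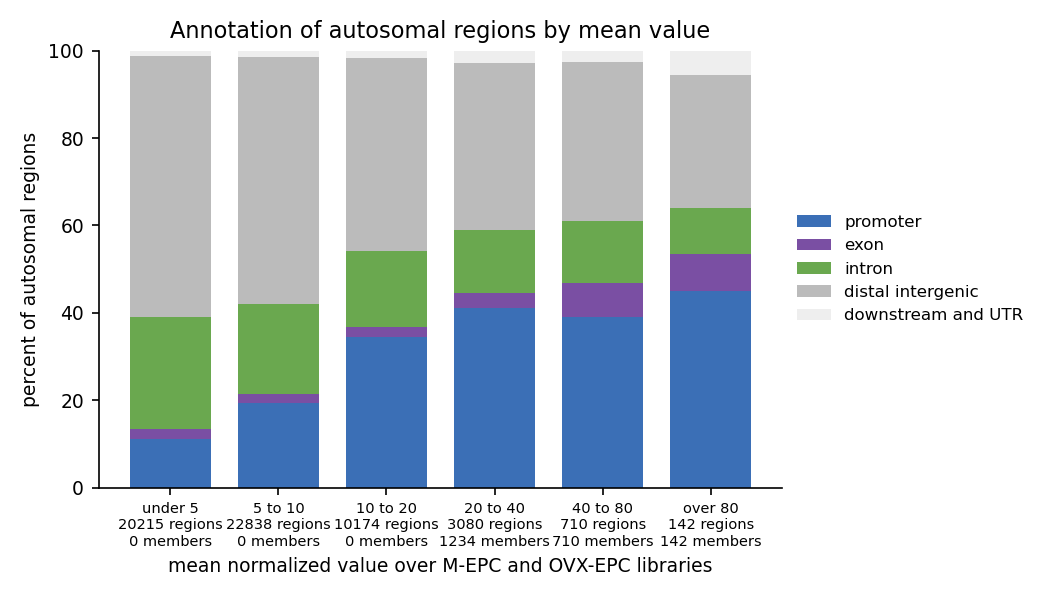
Stacked bars show the percentage of autosomal regions in each annotation class, in 6 tiers of the mean normalized value over the M-EPC and OVX-EPC libraries, with the number of regions and of strongest regions under each bar. The promoter part grows from 11.0% to 41.1% over the first 4 tiers and then stays between 39.0% and 45.1%, while the exon part grows in the upper 3 tiers.

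The leading regions of each class differed in kind. Among 3' UTR regions the highest was named Limd1, with 224 and 218 M-EPC reads and 230 and 255 OVX-EPC reads. The next were a pair named Zfp112, the stronger of which held 256 and 242 M-EPC reads and 196 and 201 OVX-EPC reads. Exon regions were led by Sfi1, a region named for the pseudogene Gm11400, whose body lies within that of Sfi1, and Zfp599, a zinc finger gene with 193 and 206 M-EPC reads and 149 and 186 OVX-EPC reads. Intron regions were led by Sfi1, Gm15739 and Mdga2, which encodes a neural cell surface protein. The Mdga2 region held 165 and 200 M-EPC reads, 327 and 295 F-EPC reads and 225 and 279 OVX-EPC reads. In the table of M-EPC and F-EPC its normalized values were 206 and 203 for M-EPC and 261 and 272 for F-EPC. It matched itself at 86.4% of positions at a shift of 290 bases. Downstream regions were led by Klrb1c (119 and 134 M-EPC reads, 70 and 115 OVX-EPC reads), a natural killer cell receptor gene, Zfp942 and Hsh2d. Those called 5' UTR were low, with Zfp938 highest at 42 and 47 M-EPC reads, 48 and 33 F-EPC reads and 26 and 47 OVX-EPC reads. The symbol in the table need not be the gene that a region lies in, and 84 of the 118 strong exon regions fell inside the GENCODE M21 body of the gene named, and the region named Zfp599 lay 18.6 kb before that gene, in the last coding exon of Zfp810.

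Strong regions clustered along the chromosomes. Joined where no more than 10 kb separated them, they formed 1470 runs, of which 283 held at least 2 regions and 899 regions (43.1%) in all, and 40 held at least 5. Of weaker regions, 2.38% had a strong region within 10 kb, where strong regions are 3.65% of all. A region of any level lay within 10 kb of 71.8% of strong and 46.4% of weaker regions. The longest run by count held 31 regions over 75.4 kb at chr11:3123882-3199293, across Pisd-ps1, Sfi1, Gm11399, Gm11400 and Fau-ps2. Its summed reads were 4972 and 6323 M-EPC reads, 7828 and 6392 F-EPC reads and 6619 and 6112 OVX-EPC reads. All 31 regions found there were strong, and their log2 fold changes from M-EPC to OVX-EPC ran from -0.18 to 0.45 with a median of 0.20.

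The next runs were shorter. At chr17:3007019-3038553, named Gm10232 throughout, 17 regions held 823 and 836 M-EPC reads and 918 and 985 OVX-EPC reads. At chr12:20888787-20914571, across Gm10478, Zfp125 and 3110053B16Rik, 15 regions held 648 and 722 M-EPC reads, 727 and 565 F-EPC reads and 529 and 647 OVX-EPC reads. At chr9:2999976-3038173, across predicted genes from Gm10722 to Gm26870, 14 regions held 921 and 1098 M-EPC reads and 1222 and 1350 OVX-EPC reads. This last run, which holds the Gm10717 window printed above, was built of repeats: in its regions a median of 6.65% of 25-base stretches were unique in the genome and 94.3% of bases were soft-masked as repeats. A further run of 14 lay at chr3:3001661-3032641. In the runs of 10 or more regions, 0 regions passed the test between OVX-EPC and M-EPC.

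Several of these runs lie at the start of a chromosome assembly, where the centromere of mouse chromosomes is. The first 5 Mb of the chromosomes held 153 (7.33%) of the strongest regions and 1.63% of the weaker ones. They also held 45 (48.4%) of the 93 with a mean value of at least 100. These counts include clustered regions, among them the run of 31 on chromosome 11, with mean values of 80.8 to 320. Per 10 Mb of chromosome, strong regions were densest on chromosomes 17 (193 regions, 20.3 per 10 Mb) and 7 (193 regions, 13.3 per 10 Mb) and sparsest on 14 (35 regions, 2.80 per 10 Mb). Strong regions also lay nearer to genes, at a median of 16.0 kb from a coding start site compared with 55.4 kb for weaker regions.

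In sequence the strongest regions were a little richer in GC (median 51.0% and 48.5%) and more often rich in CpG. An observed-to-expected CpG ratio of at least 0.6 was found in 26.4% of the strongest and 10.7% of the weaker regions. Soft-masked repeats covered a median of 14.0% and 21.3% of their bases. A median of 89.8% of the 25-base stretches in strong regions were unique in the genome, compared with 93.6% in weaker regions. In the 93 strong regions with a mean value of at least 100 the median was 76.3%. Within the promoter class the CpG shares were closer, 58.6% and 46.2%, and 100% of the 25-base stretches were unique at the median in both sets. Mapping of 25-base reads depends on such uniqueness, and its part in the read counts was not tested.

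Internal repetition set a small part of the strongest regions apart. At some shift of 10 to 300 bases, 125 of them (5.99%) and 679 of the weaker regions (1.23%) matched themselves at 70% or more of positions. The best shift was 84, 168 or 252 bases in 51 strong and 57 weaker regions, and 29 of the 51 bore a zinc finger gene's name. It was 232 to 236 bases, the satellite unit, in 11 strong and 7 weaker regions.

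Zinc finger genes named more strong regions than any other protein family listed. Zfp, Zscan and Zkscan genes, most of which encode DNA-binding proteins with arrays of C2H2 fingers, named 211 (10.1%) of the strongest and 1.37% of the weaker regions, so that 21.9% of the 964 regions named for them were strong. These 211 regions belonged to 97 of the 323 such genes with any region. They lay mainly on chromosomes 7 (52), 17 (36), 13 (23) and 8 (23), where zinc finger gene clusters are. Zfp951 and Zfp873 had 10 strong regions each and Zfp125 had 8. Over the 10 regions of Zfp873 the reads summed to 533 and 529 M-EPC reads, 529 and 448 F-EPC reads and 399 and 481 OVX-EPC reads. For Zfp951 the sums were 619 and 617 M-EPC reads and 467 and 566 OVX-EPC reads.

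The signal on these genes sat toward their 3' ends, where the finger array is usually encoded by a single last exon. Of the strong regions inside the zinc finger gene that named them, 52.2% lay in its last 25% and 11.2% in its first 25%, compared with 20.9% and 38.3% of the weaker ones. The linker motif, searched on both strands as ACNGGNGANAANCC and GGNTTNTCNCCNGT, occurred in 97 (4.65%) of the strongest and 146 (0.265%) of the weaker regions, and in 0.0609% of 32851 promoters of the RefSeq table. Among exon regions it occurred in 46 (39.0%) of the strong and 3.94% of the weaker ones. A match shows only that these letters are present. Between OVX-EPC and M-EPC, 1 of the 211 regions was lower and 0 higher by the test, beside 0.402% of all regions tested that were lower, with a median log2 fold change of -0.25. Between F-EPC and M-EPC, 6 of the 51 covered regions were lower and 0 higher, beside 1.62% lower of all covered regions tested, with a median of -0.50. Of all 718 strong covered regions, which M-EPC reads helped to choose, 45 were lower, with a median of -0.42. With TMM factors 1 of the 51 was lower (median -0.38), beside 0.296% of all covered regions. With edgeR 4 were lower, beside 1.01%.

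The gene lists of this paragraph stand beside the 3.65% of all autosomal regions that were strong. They lay below or near it, apart from the few Slfn regions. The short lists of the following paragraphs lay above it, on few regions. Predicted genes (Gm) named 521 strong regions, 25.0%, compared with 38.9% of the weaker ones. Olfactory receptor genes named 7 of their 726 regions as strong (0.964%), and vomeronasal receptor genes 15 of 354 (4.24%). Protocadherin genes named 6 of 205 (2.93%), ribosomal protein genes and pseudogenes 16 of 515 (3.11%) and microRNA genes 30 of 760 (3.95%). Histone genes (Hist) had 0 of 32, Hox genes 0 of 10 and Schlafen (Slfn) genes 1 of 12. Rik cDNA names made up 134 strong regions, 6.42%, and 4.93% of the weaker ones, and 4.70% of the regions so named were strong.

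Imprinted genes named 5 strong regions among 42 (11.9%, beside 3.65% of all autosomal regions). Inpp5f, whose window is printed above, held 74 and 88 M-EPC reads and 57 and 67 OVX-EPC reads. Impact, a regulator of translation, held 93 and 66 M-EPC reads and 42 and 56 OVX-EPC reads. Airn, the antisense RNA that silences Igf2r, held 32 and 32 M-EPC reads and 22 and 26 OVX-EPC reads. The Airn region was chosen through M-EPC alone. In these 3 regions the groups' normalized values did not overlap, as in 47.9% of all regions tested. Of the 5 regions 0 passed the test (limma, adjusted p of 0.212 to 0.986). Mest held 21 and 35 M-EPC reads and 22 and 33 OVX-EPC reads, and H19, a long noncoding RNA, held 21 and 30 M-EPC reads and 29 and 33 OVX-EPC reads. The normalized values of H19 did not overlap either, but there OVX-EPC was higher (log2 fold change 0.28).

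Genes of the H3K9 methylation machinery named 4 strong regions among 28 (14.3%, beside 3.65% of all autosomal regions). The Kdm4b promoter, of an H3K9 demethylase gene, held 47 and 46 M-EPC reads and 38 and 40 OVX-EPC reads. A region 14.3 kb before Smchd1, a chromatin silencing gene, held 63 and 74 M-EPC reads and 49 and 61 OVX-EPC reads. Regions named Cbx3, a heterochromatin protein gene, and Atf7ip, a Setdb1 partner gene, overlapped between the groups, with 43 and 71 reads against 38 and 63 for Cbx3. None (0 of 4) passed the test.

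Ccl3, Angpt1, Kdr, Nos3, Tek and Vegfa are genes at which the study looked for the mark. Of these only Vegfa, the angiogenic growth factor gene, named a strong region, 1 of the 19 regions (5.26%) named for these genes. It is distal, 104 kb past the 3' end of Vegfa, and its first 300 bases are given with CpG dinucleotides in capitals.
Vegfa, chr17:45912141-45912440: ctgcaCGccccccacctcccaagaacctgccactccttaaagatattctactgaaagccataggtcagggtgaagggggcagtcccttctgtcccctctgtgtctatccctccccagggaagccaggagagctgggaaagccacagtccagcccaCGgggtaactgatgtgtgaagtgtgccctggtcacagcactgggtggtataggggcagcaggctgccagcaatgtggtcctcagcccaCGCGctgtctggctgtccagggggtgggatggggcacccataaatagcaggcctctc
The region held 50 and 39 M-EPC reads and 29 and 37 OVX-EPC reads, and the groups did not overlap, as in 47.9% of all regions tested. Its log2 fold change was -0.43 and did not pass the test (limma, adjusted p = 0.435).

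To ask whether the most marked regions differ between the groups, OVX-EPC was first compared with M-EPC. These groups differ both in sex and in ovariectomy, which cannot be told apart in this comparison. The 0.449% of all tested regions that passed, sex chromosomes included, consisted of 0.402% lower and 0.0473% higher in OVX-EPC. Of the 16616 autosomal regions tested 67 passed (0.403%), with 67 lower and 0 higher. Of the 2086 strongest regions 33 (1.58%) passed, all 33 lower in OVX-EPC, at 27 separate places. The rule weighs on this count, since a region that M-EPC alone took past 30 reads had to be lower in OVX-EPC: 27 of the 33 came from those 355 regions. Among the 1698 regions that both groups took past 30 reads, 6 passed (0.353%), close to the background. Among weaker regions 34 of 14530 (0.234%) passed, all 34 lower.

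The count rests on having 2 libraries in each group: fewer strong regions passed with any 1 left out, and the same held over all regions tested. With edgeR on the recovered reads 43 strong regions passed, 34 lower and 9 higher, beside 0.723% of all regions (0.38% lower, 0.343% higher). The 43 included all 33. Of the 18880 autosomal regions tested with edgeR, 70 were lower and 27 higher. With TMM factors in the limma fit 25 strong regions passed, 22 lower and 3 higher. Beside them stood 41 of all 17942 regions then tested (0.229%, with 0.173% lower and 0.0557% higher). Of the 17593 autosomal ones 30 were lower and 4 higher.

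The whole distribution leaned the same way by a small amount. The median log2 fold change of the strongest regions was -0.27, beside -0.17 over all autosomal regions tested and -0.15 in weaker regions. It was -0.21 in the regions both groups took past 30 reads. TMM factors moved the median of all regions tested from -0.16 to 0.00, and the medians became -0.12 for the strongest and 0.01 for the weaker regions. The lean did not extend to the highest levels. The median was -0.31 in the 1234 strong regions with a mean value under 40, -0.26 in the 759 from 40 to 100 and 0.19 in the 93 at 100 or more, of which 67.7% were higher in OVX-EPC. With TMM factors these medians were -0.16, -0.11 and 0.34. The rule weighs on the medians by level too, which were not split by the groups that passed 30 reads. Of the 355 regions chosen through M-EPC alone, 100% were lower in OVX-EPC, with a median of -0.69. In the first 5 Mb of chromosomes the median was 0.15 and elsewhere -0.30. Of the 93 regions at 100 or more, the 45 in the first 5 Mb had a median of 0.21, and 84.4% were higher in OVX-EPC. The 48 elsewhere had a median of 0.05, with 52.1% higher. With TMM factors the medians of these 45 and 48 regions were 0.37 and 0.20. By class the medians were -0.32 in strong promoter regions and -0.27 in strong distal ones, compared with -0.27 and -0.01 in the weaker regions.

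**Figure D3:**
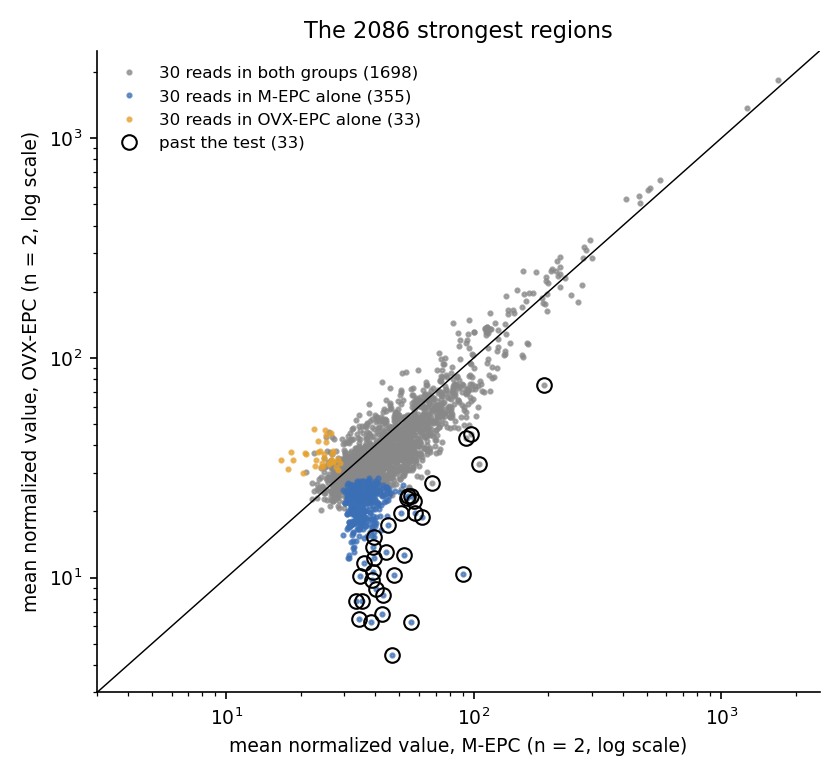
Mean normalized value in M-EPC (x axis) and OVX-EPC (y axis) for each of the 2086 strongest regions, n = 2 libraries per group, on log scales, with colours for the groups whose libraries passed 30 reads and black circles around the 33 regions that passed the test. The circles all lie below the diagonal of equal values and mostly under a value of 100, while the points at the upper right lie on or just above the diagonal.

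The sequences of the regions lower in OVX-EPC that were named by the rule show no single kind of DNA, and 3 are printed with CpG dinucleotides in capitals.
Mex3b, chr7:82869596-82869895: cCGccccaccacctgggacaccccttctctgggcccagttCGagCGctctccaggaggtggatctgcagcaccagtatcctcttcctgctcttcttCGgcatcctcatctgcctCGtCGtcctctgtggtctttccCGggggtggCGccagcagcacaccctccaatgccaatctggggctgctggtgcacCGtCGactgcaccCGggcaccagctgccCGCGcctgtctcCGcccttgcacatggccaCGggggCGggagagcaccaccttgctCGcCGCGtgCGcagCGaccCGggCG
Gm38231, chr10:37128705-37129004: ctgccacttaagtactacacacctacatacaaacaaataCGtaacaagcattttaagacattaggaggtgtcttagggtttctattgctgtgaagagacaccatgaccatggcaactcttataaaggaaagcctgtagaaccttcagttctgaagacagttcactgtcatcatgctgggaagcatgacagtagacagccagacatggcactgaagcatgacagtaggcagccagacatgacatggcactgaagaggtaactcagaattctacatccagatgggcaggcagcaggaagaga
Slfn9, chr11:83000723-83001022: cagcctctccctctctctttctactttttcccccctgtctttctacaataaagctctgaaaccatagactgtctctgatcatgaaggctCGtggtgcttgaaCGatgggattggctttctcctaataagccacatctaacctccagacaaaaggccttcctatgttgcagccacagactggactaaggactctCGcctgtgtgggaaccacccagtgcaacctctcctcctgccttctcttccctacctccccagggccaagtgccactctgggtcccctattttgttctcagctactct
The Mex3b window held 23 CpG dinucleotides, the Gm38231 window 1 and the Slfn9 window 3.

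Among the regions named here the smallest p-value was at Mex3b, the gene of an RNA-binding protein. The regions of Mex3b, Gm38231, Iigp1 and Sipa1l2 passed 30 reads in M-EPC alone, so a lower value in OVX-EPC was built into their choice. Its region at chr7:82869538-82869937, in a coding exon of the gene, held 95 and 88 M-EPC reads and 14 and 7 OVX-EPC reads. The mean normalized value was 90.8 ± 16.0 for M-EPC compared with 10.4 ± 5.34 for OVX-EPC (SD, 2 libraries each), and the log2 fold change was -3.08 ± 0.31 (SE, limma, adjusted p = 1.1e-06).

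Gm20750, a long noncoding RNA gene on chromosome 3, had 2 such regions. Both held at least 31 reads in each OVX-EPC library, so they were not chosen through M-EPC alone. The exon region at chr3:52909978-52910377 held 100 and 113 M-EPC reads and 31 and 36 OVX-EPC reads (log2 fold change -1.65 ± 0.24, SE, limma, adjusted p = 0.000335). The intron region at chr3:52919412-52919811 held 190 and 199 M-EPC reads and 75 and 79 OVX-EPC reads (log2 fold change -1.34 ± 0.21, SE, limma, adjusted p = 0.00083).

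Gm38231, an unclassified transcript on chromosome 10, had a region on each side. The region before it, at chr10:37128705-37129104, held 44 and 53 M-EPC reads, 30 and 19 F-EPC reads and 9 and 12 OVX-EPC reads, and its log2 fold change from M-EPC to OVX-EPC was -2.12 ± 0.31 (SE, limma, adjusted p = 0.000335). The region past it, at chr10:37130855-37131254, held 55 and 50 M-EPC reads, 9 and 11 F-EPC reads and 12 and 14 OVX-EPC reads, with a log2 fold change of -1.94 ± 0.30 (SE, limma, adjusted p = 0.00062). F-EPC thus lay between the other groups in the first region and beside OVX-EPC in the second.

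A region 3.61 kb past the 3' end of Iigp1, an interferon-inducible GTPase gene on chromosome 18, held 37 and 41 M-EPC reads and 4 and 9 OVX-EPC reads (log2 fold change -2.51 ± 0.37, SE, limma, adjusted p = 0.000335). A region 56.1 kb past the 3' end of Sipa1l2 on chromosome 8 held 54 and 30 M-EPC reads and 7 and 7 OVX-EPC reads (log2 fold change -2.38 ± 0.37, SE, limma, adjusted p = 0.00062). The Sipa1l2 region had a wide spread between the M-EPC libraries, with normalized values of 42.6 ± 21.9 (SD, n = 2).

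F-EPC libraries did not enter the rule, although the M-EPC libraries they were compared with did. Over the 8139 covered regions tested, 1.79% differed between F-EPC and M-EPC, 1.62% lower and 0.172% higher in F-EPC. Of the 718 strong covered regions 46 (6.41%) passed, 45 lower and 1 higher, compared with 100 of 7421 weaker ones (1.35%). Of the 588 that both M-EPC and OVX-EPC took past 30 reads 27 passed, and of the 116 that M-EPC alone took past it 19 passed. The median log2 fold change was -0.42 in strong and -0.16 in weaker regions, and -0.30 and -0.02 with TMM factors, under which 17 strong regions passed, 16 lower and 1 higher, beside 29 of 8103 covered regions (0.358%; 0.296% lower, 0.0617% higher). With edgeR 124 of the covered regions passed (1.37%; 1.01% lower, 0.352% higher), and 32 of the 46 were among them. The count depended on single libraries: it rose without M-EPC replicate 2 and fell without any other, and the same held over all covered regions tested. In F-EPC 580 and 559 of the 718 regions held 30 or more reads per library.

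Among the named regions lower in F-EPC, those of Unc5a and Cdh23 lay inside their genes. Both regions, like the second one of Gm38231, passed 30 reads in M-EPC alone, so a high M-EPC value was built into their choice. The Unc5a region, in the gene of a netrin receptor at chr13:55003203-55003830, held 36 and 33 M-EPC reads, 8 and 8 F-EPC reads and 10 and 3 OVX-EPC reads (F-EPC against M-EPC: log2 fold change -2.34 ± 0.35, SE, limma, adjusted p = 0.00081). The second Gm38231 region, given above, had a log2 fold change of -2.65 ± 0.32 (SE, limma, adjusted p = 2.9e-05). A Cdh23 region, in a cadherin gene, held 61 and 64 M-EPC reads, 36 and 29 F-EPC reads and 15 and 24 OVX-EPC reads (log2 fold change -1.31 ± 0.25, SE, limma, adjusted p = 0.00998).

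Regions outside the genes that name them were lower as well. A region named Ccdc71l, 176 kb away from it, held 46 and 44 M-EPC reads and 17 and 15 F-EPC reads (log2 fold change -1.81). A Fam162b region held 49 and 69 M-EPC reads and 24 and 28 F-EPC reads (log2 fold change -1.52). Gm37030, a pseudogene, held 30 and 30 M-EPC reads and 9 and 11 F-EPC reads (log2 fold change -1.86). The Ccdc71l and Gm37030 regions were also chosen through M-EPC alone, those of Fam162b and Gm12258 through both groups. A region inside Gm12258, a predicted gene, held 74 and 90 M-EPC reads and 54 and 35 F-EPC reads (log2 fold change -1.28). All 4 passed the test (limma, adjusted p of 0.0026 to 0.0074).

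The 1 strong region higher in F-EPC was inside Sp110, the gene of a nuclear body protein. It held 80 and 88 M-EPC reads, 176 and 186 F-EPC reads and 137 and 158 OVX-EPC reads, with a log2 fold change from M-EPC to F-EPC of 0.71 ± 0.18 (SE, limma, adjusted p = 0.041). From M-EPC to OVX-EPC its log2 fold change was 0.79 and did not pass the same test (adjusted p = 0.0993), while edgeR gave an adjusted p of 0.0102.

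Of the 33 strong regions lower in OVX-EPC than in M-EPC, 9 were covered in F-EPC. All 9 had a negative log2 fold change from M-EPC to F-EPC and 8 passed that test too. Both comparisons share the M-EPC libraries that also chose the regions, so this count is no independent support.

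OVX-EPC and F-EPC, the groups of female origin, differed at 1 of 7897 covered regions (0.0127%), and that region was 1 of the 714 strong ones tested. With edgeR there was also 1 region among the covered ones tested (0.0109%). The region, at chr11:83000723-83001122 and 8.89 kb before the 5' end of Slfn9, a Schlafen family gene, held 32 and 36 M-EPC reads, 41 and 39 F-EPC reads and 8 and 8 OVX-EPC reads. It was chosen through M-EPC alone, so OVX-EPC reads below the threshold and below M-EPC were built into its choice, while F-EPC took no part in it. From F-EPC to OVX-EPC its log2 fold change was -1.86 ± 0.33 (SE, limma, adjusted p = 0.0096), and from M-EPC to F-EPC it was -0.15 (adjusted p = 0.768). Over the strong regions the median from F-EPC to OVX-EPC was 0.12 and over the weaker ones 0.01.

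**Figure D4:**
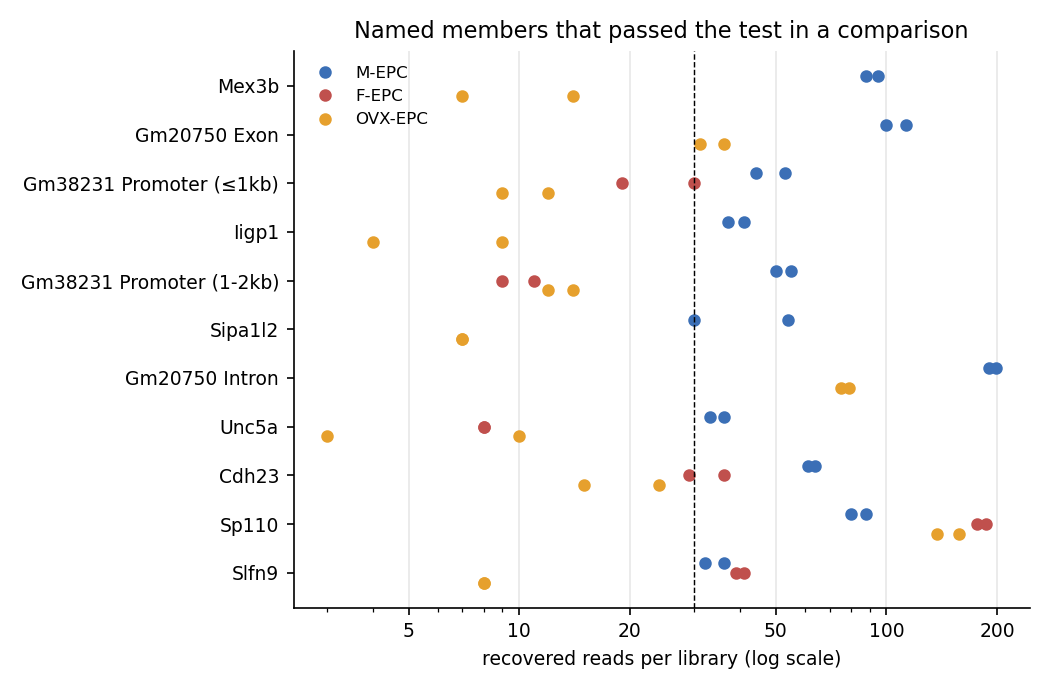
Recovered reads per library (log scale) in named regions that passed the test in a comparison, 1 point per library (equal counts overlie), with F-EPC drawn where both of its libraries cover the region and a dashed line at the threshold of 30 reads. M-EPC points lie to the right of OVX-EPC points in every row except Sp110, where M-EPC is lowest.

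The rule used no annotation, but it used the reads that weight the share falling in promoter regions, so these shares are given as a description. Within the strongest regions M-EPC had 43.4% and 41.9%, OVX-EPC had 44.1% and 42.0%, and the groups overlapped (difference 0.36 percentage points). Within the weaker regions M-EPC had 29.7% and 26.2% while OVX-EPC had 24.2% and 24.1%, so that both M-EPC libraries were above both OVX-EPC libraries (difference -3.79 points). With 2 libraries against 2, a two-sided exact permutation test cannot go below p = 0.333, so no difference in these shares could pass.

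The gap between strongest and weaker regions was 13.8 and 15.7 points in M-EPC and 19.9 and 17.9 points in OVX-EPC. It was wider in both OVX-EPC libraries, by 4.15 points on average. Covered regions gave like values for F-EPC. Within the strongest of them the promoter share was 45.5% and 44.4% in M-EPC and 44.4% and 45.6% in F-EPC (difference 0.0813 points). Within the weaker ones it was 27.3% and 23.6% in M-EPC and 19.7% and 21.6% in F-EPC (difference -4.73 points). Counting error was small, with 95% Wilson intervals of at most 0.494 points to either side.

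**Figure D5:**
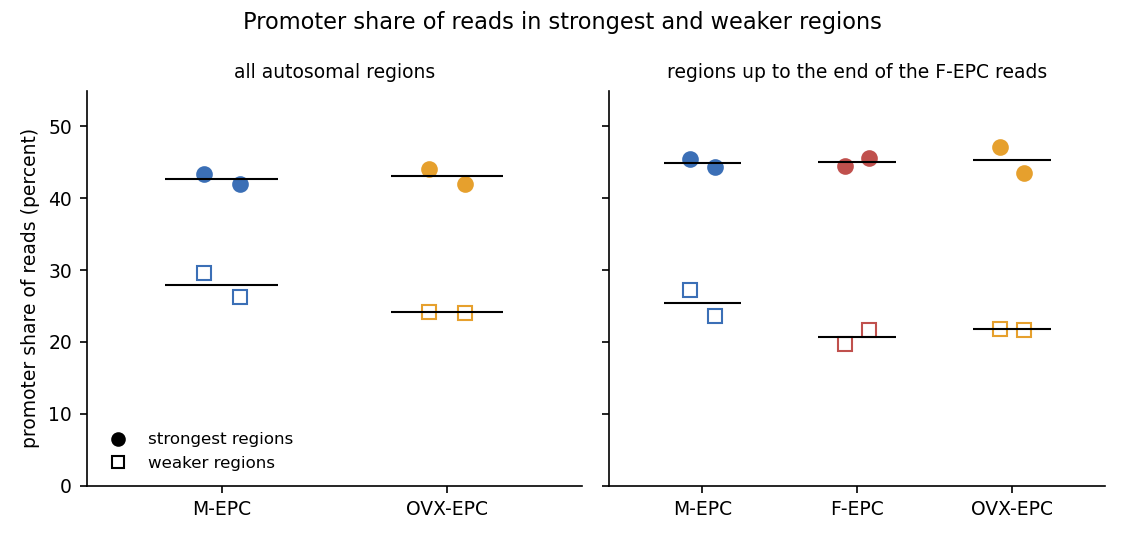
Promoter share of reads (percent) in each library, with filled circles for the strongest and open squares for the weaker regions and a black line at the mean of each group's 2 libraries, over all autosomal regions (left) and the regions covered in F-EPC (right). The circles lie between 41.9% and 47.1% in every group, and the M-EPC squares lie above those of the other groups.

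The strongest regions held 21.7% and 19.5% of the autosomal region reads of M-EPC, compared with 18.0% and 19.3% for OVX-EPC (20.6% ± 1.51 and 18.7% ± 0.964, SD, n = 2 each). The reads chose the regions, so this share is a description with no test. The median strong region held 31 to 42 reads per library and the median weaker region 5 to 7.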

How the data were processed

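Region signal of H3K9me3 CUT&Tag was taken from the 3 deposited tables, 1 for each pair of groups. The authors trimmed read pairs to 25 bases, aligned them to mm10 with Bowtie2 (the submitters' processing notes name BWA and MACS2), removed duplicates and reads of mapping quality under 10, and called peaks with MACS. Removing duplicates limits strong regions, and the quality filter lowers repeats. The deposited signal per region and library was normalized by the authors with 1 factor per library and table. Dividing by the smallest nonzero value gave whole reads for 100% of values (tolerance 1e-6). The tables also hold a mean, the authors' log2 fold change, p-value, adjusted p-value and trend, which were not used.

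Regions on chromosomes 1 to 19 with at least 30 reads in at least 2 of the 4 libraries were kept. The members, the gene lists and the rule for named regions were chosen with earlier results of these data known. The rule named the 12 highest regions, the 3 highest per class, up to 10 per direction and comparison by p-value among those passing with no overlap, the largest runs, listed genes and the regions at the threshold. Some regions that it names are not reported here. Tests used limma 3.58.1 with its trend option on log2(value + 1) and Benjamini-Hochberg adjustment over all regions tested (value of at least 10 in at least 2 libraries), run on the 4 libraries of each table with no covariates and tested on simulated data. Alternatives were edgeR 4.0.16 (quasi-likelihood) and DESeq2 1.42.0 on recovered reads, TMM factors, other filters and thresholds, a replicate block and each library left out. Sequence came from RefSeq GRCm38 and gene bodies from GENCODE M21. Depth was 288353 to 573821 region reads per library.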

Additional observations from a re-analysis of the deposited data

Results flagged for a closer look

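The region 8.89 kb before Slfn9 stood out because OVX-EPC differed from F-EPC there. It had been chosen through M-EPC alone, so low OVX-EPC reads were built into its choice. Its log2 fold change from F-EPC to OVX-EPC was -1.86, with both OVX-EPC libraries at 8 reads and the other 4 libraries at 32 to 41. It was 1 of 2086 strongest regions and was found by looking through all of them.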

How the results depend on the processing

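Numbers of strong regions past the test depended on the settings, and between OVX-EPC and F-EPC the direction did too. For OVX-EPC against M-EPC the 33 regions became 6 with DESeq2, 115 when only regions with a value of at least 30 in 2 libraries were tested, 50 with no filter, 57 and 12 when members were taken from 20 and from 50 reads, 6 when each group had to reach 30 reads, and 0 to 11 with 1 library left out. Between F-EPC and M-EPC the 46 became 4 with DESeq2, 17 with TMM factors, 904 over all regions including those where F-EPC reads stop, 135 with the filter at 30, 88 and 20 from 20 and 50 reads, 27 with 30 reads in each group, and 0 to 63 with 1 library left out. For OVX-EPC against F-EPC the 1 region, lower in OVX-EPC, became 0 with DESeq2, 837 over all regions (835 higher), 0 with the filter at 30, 0 from 50 reads and with 30 reads in each group, and 0 to 8 with 1 library left out (the 8, of which 7 were higher, without OVX-EPC replicate 2). The filter and the member threshold change how many regions are tested or counted. The 904 and the 837 include regions past the points where F-EPC reads stop, which entered with 0 reads in F-EPC. These counts, and the direction of the 835, therefore cannot be read as differences between groups. The cause of the remaining changes was not tested.

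The promoter share of reads in the strongest regions changed sign when members were taken from 20 reads, to -0.421 points for OVX-EPC and -0.652 for F-EPC, and ran from -0.700 to 1.43 and from -0.486 to 0.649 with 1 library left out. In weaker regions it stayed negative, from -5.51 to -2.06 and from -6.59 to -2.87. The share of reads in the strongest regions differed by -1.95 points, by -3.56 from 20 reads, by -0.437 from 50 reads and by -3.02 to -0.882 with 1 library left out. Counting only promoters within 1 kb, 30.5% of the strongest regions were promoters.

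The replicate numbers were fitted as a replicate block, which gave 30, 36 and 0 strong regions for OVX-EPC against M-EPC, F-EPC against M-EPC and OVX-EPC against F-EPC. Deviations of same-numbered libraries had correlations of -0.0179, -0.0522 and -0.0311. The labels give these libraries only a common number, and such correlations cannot exclude a shared preparation. Of 265 values of 22 named results under the alternatives, 214 kept their side of the threshold, 51 no longer passed and 0 changed sign. At 5 to 7 reads in the median weaker region, small differences there were not detectable.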
